A study of Mus musculus with 24 samples.

Results

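Dbp, Tef and Hlf encode the PAR bZip transcription factors of the mouse, and Nfil3 encodes a bZIP repressor that reads the same DNA element. The 4 genes were taken by name from the deposited table of liver read counts, whose Ensembl identifiers were matched to mouse symbols. They are 4 of 54532 genes in that table and 4 of the 15090 that passed the filter on low counts. Livers had been sampled at zeitgeber time (ZT, hours after lights on) 4, 8, 12, 16, 20 and 24. One genotype was wild type (Hlf+/+/Dbp+/+/Tef+/+). The other, called the knockout here, lacked both alleles of all 3 PAR bZip genes (Hlf-/-/Dbp-/-/Tef-/-) and kept Nfil3. All mice fed ad libitum and were 12 to 16 weeks old. Each genotype and time gave 2 libraries, marked I and P in the labels, so that 12 libraries stood on each side and 24 in all. Neither the meaning of these letters nor the sex of the mice nor the exons removed is stated in the labels. They do not say either whether the 2 libraries of a group are from different mice, so p-values measure only how far these samples differ, and that spread may be technical.

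Libraries held 14613001 to 19288322 counts. The 6 hepatocyte markers checked, led by albumin, summed to a median of 87407 CPM (counts scaled to library size, as edgeR's cpm function gives them) in wild-type libraries and 55643 CPM in knockout libraries, so the defining markers of liver were present. Wild-type set I stood apart: across genes, how far its 6 libraries departed from the median library rose with GC content (r of 0.211 to 0.648). The same r lay between −0.207 and 0.0538 in wild-type set P, between −0.138 and 0.0101 in knockout set I and between −0.305 and −0.113 in knockout set P. Averaged genotype differences of the members and of the named list genes are given below with all libraries, and without this set where its removal ends or makes a call or moves a list's count by over 1.5 times. No pair of libraries in a group agreed within counting noise, and each was counted as its own sample. Spread beyond counting noise may also be technical, so it does not show that the 2 libraries are from different mice. In whole liver, fewer cells of a type and less RNA per cell cannot be told apart.

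PAR bZip proteins are leucine zipper activators with a stretch rich in proline and acidic residues, and they bind a palindromic element, the D-box, as homodimers or heterodimers. NFIL3, also called E4BP4, binds the D-box as well and represses transcription from it, so that the balance of activators and repressor over the day is thought to set the output of D-box genes. In liver these genes are known as output of the circadian clock: CLOCK and BMAL1 act on Dbp through E-boxes, and the REV-ERB and ROR receptors act on Nfil3. The known targets of the activators in liver are largely genes of drug, bile acid and fatty acid metabolism. NFIL3 is also known for its part in the development of natural killer cells.

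Because the members move in different phases, their start regions were searched for the elements these regulators read. The windows were the 250 bases before each RefSeq start (build GRCm38.p6), both strands, for the E-box CACGTG, the D-box as TTATGTAA or TTACGTAA and the core of the ROR element as TAGGTCA or TGGGTCA. All 4 members matched the RefSeq table, Tef with 2 starts. The stretches that held an element are shown 5′ to 3′ on the strand of the gene, with the element in capitals. The first is Tef start 1 (chr15:81802534-81802563), the second Tef start 2 (chr15:81811219-81811338) and the third Nfil3 (minus strand, chr13:52981040-52981069), where the core reads on the opposite strand.
Tef start 1: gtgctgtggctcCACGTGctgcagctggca
Tef start 2: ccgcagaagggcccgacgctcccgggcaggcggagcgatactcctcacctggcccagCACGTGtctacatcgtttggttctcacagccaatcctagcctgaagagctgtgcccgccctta
Nfil3: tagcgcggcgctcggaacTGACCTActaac

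The E-box began 127 bases before RefSeq start 1 of Tef and 138 bases before its RefSeq start 2. The ROR element core began 12 bases before the RefSeq start of Nfil3. The gene spans given below are from GENCODE, whose starts differ. All stretches shown, and part of the Dbp window, lie inside those spans. An E-box was found in 6.02% of all 32817 such windows, a D-box in 0.929% and a ROR element core in 5.39%. The windows of Dbp and Hlf held none of these letters, and no member's window held the D-box letters. These matches are descriptions of the sequence and not binding sites.

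Dbp, the activator with the widest daily range, lies at mm10 chromosome 7, 45705088 to 45710203 on the plus strand (ENSMUSG00000059824). In the wild-type libraries its level was 2.99 and 12.0 CPM at ZT04, 56.8 and 50.3 CPM at ZT08, and 24.1 and 29.8 CPM at ZT12 (set I first). It then fell away to 2.15 and 3.12 CPM at ZT16, 2.22 and 0.722 CPM at ZT20, and 0.459 and 0.279 CPM at ZT24. Both ZT08 libraries were the highest of the 12 and both ZT24 libraries the lowest. The pairs at ZT04 and ZT20 lay furthest apart, relative to their level. From its highest to its lowest time the mean level changed 145-fold, from 53.5 ± 4.59 to 0.369 ± 0.128 CPM (SD, n = 2 each).

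Tef, the activator with the most counts, lies at chromosome 15, 81802421 to 81826863 on the plus strand (ENSMUSG00000022389). Its wild-type level was 107 and 106 CPM at ZT04, 330.2 and 297 CPM at ZT08, and 280 and 301 CPM at ZT12. It was 229 and 208 CPM at ZT16, 171 and 97.7 CPM at ZT20, and 42.4 and 48.4 CPM at ZT24. Tef thus stayed high through ZT16, where Dbp had already dropped, and its mean fell 6.91-fold from ZT08 (314 ± 23.5 CPM) to ZT24 (45.4 ± 4.22 CPM; SD, n = 2 each).

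Hlf, the flattest of the activators, lies at chromosome 11, 90336536 to 90390895 on the minus strand (ENSMUSG00000003949). Its wild-type level was 46.9 and 55.0 CPM at ZT04, 89.8 and 80.0 CPM at ZT08, and 91.8 and 95.6 CPM at ZT12. It was 89.7 and 88.9 CPM at ZT16, 59.2 and 64.0 CPM at ZT20, and 59.9 and 52.1 CPM at ZT24. The 6 libraries of ZT08 to ZT16 all lay above the other 6. The range of means was 1.84-fold, from 51.0 ± 5.72 CPM at ZT04 to 93.7 ± 2.67 CPM at ZT12 (SD, n = 2 each).

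Nfil3, the repressor, lies at chromosome 13, 52967209 to 52981073 on the minus strand (ENSMUSG00000056749). Its wild-type level was 47.1 and 32.2 CPM at ZT04, 8.59 and 9.48 CPM at ZT08, and 16.3 and 18.9 CPM at ZT12. It was 57.8 and 33.8 CPM at ZT16, 68.5 and 44.3 CPM at ZT20, and 43.1 and 55.2 CPM at ZT24. The lowest pair, at ZT08, came at the time when Dbp and Tef were highest. The mean rose 6.24-fold from 9.04 ± 0.631 CPM at ZT08 to 56.4 ± 17.1 CPM at ZT20 (SD, n = 2 each), and the pairs at ZT16, ZT20 and ZT24 overlapped one another.

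**Figure D1:**
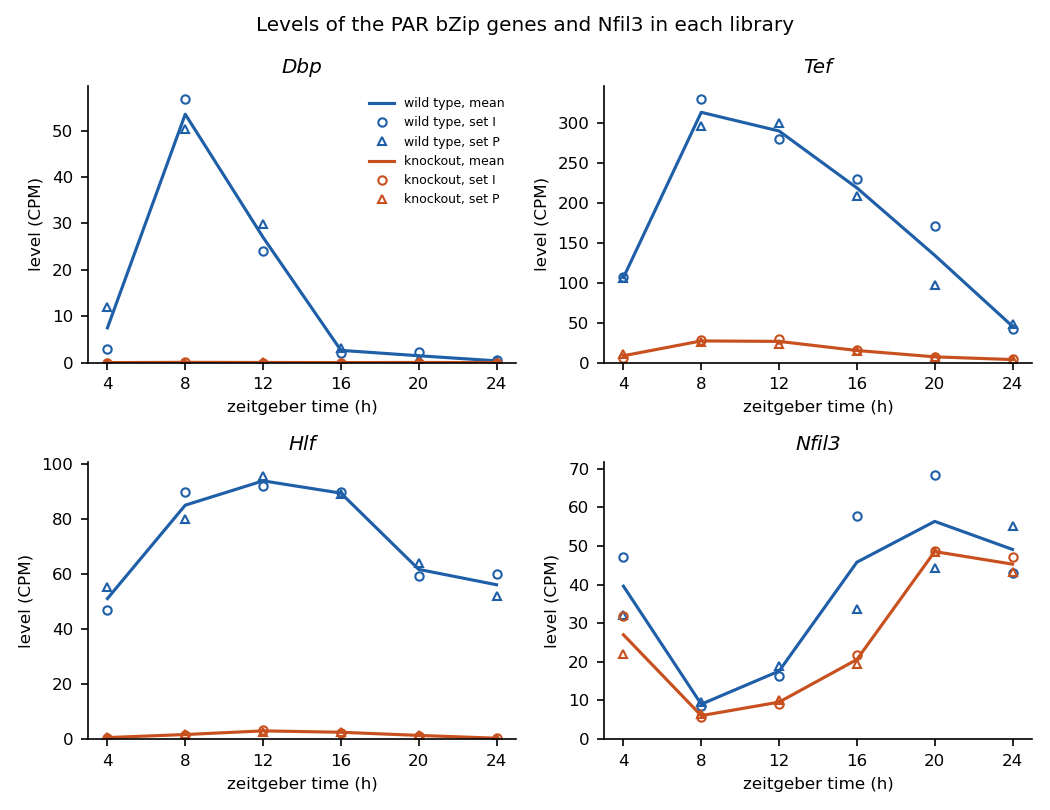
Level of each gene in CPM (linear axes from 0) against zeitgeber time in wild type (blue) and knockout (orange); circles are set I, triangles set P and lines join the means of the 2 libraries. Dbp and Tef are highest at ZT08, where Nfil3 is lowest (9.04 CPM in wild type), and Dbp in the knockout lies on the axis.

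A wave of 24 h was tested in wild type with edgeR's quasi-likelihood test, adjusted with the Benjamini-Hochberg method over all 15090 genes and called under 0.05. All 4 members passed, where 8.67% of all genes tested did. The amplitude, the log2 height of the fitted wave above its mean, was 3.17 for Dbp (edgeR adjusted p = 3.77e-06), the 8th largest of the 1308 genes called. It was 1.25 for Tef (adjusted p = 0.00022 by edgeR), 1.17 for Nfil3 (0.00187) and 0.47 for Hlf (0.0221), at ranks 185, 207 and 899. The Hlf call was the least firm, since it was lost without wild-type ZT12 replicate 2 (edgeR adjusted p = 0.0552).

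The fitted peaks came in the order Dbp, Tef, Hlf, Nfil3. In the edgeR fit they lay at ZT 9.42, 11.9, 12.8 and 21.3 h. A least-squares fit to log2 CPM, used for the errors, placed them at 9.64 ± 0.46, 11.8 ± 0.53, 12.8 ± 0.48 and 21.2 ± 0.70 h (SE, n = 12 libraries each). Tef followed Dbp by 2.15 h (SE 0.43, 95% interval 1.17 to 3.13 h) and Hlf followed Dbp by 3.18 h (SE 0.66, 1.69 to 4.68 h). Tef and Hlf were not separated, with a gap of 1.03 h and an interval of −0.75 to 2.81 h.

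Nfil3 peaked 11.6 h after Dbp (SE 0.69, 95% interval 9.99 to 13.1 h), an interval that holds the 12 h of exact antiphase. It peaked 9.41 h after Tef (SE 0.86, 7.46 to 11.3 h) and 8.37 h after Hlf (SE 0.67, 6.85 to 9.90 h), and neither interval reaches 12 h. In this 24 h fit the antiphase was thus with Dbp, and relative to Tef and Hlf the fitted peak of Nfil3 came short of it. These values rest on the shape of the wave: with a 12 h harmonic added, the peak of the fitted curve of Nfil3 came 16.1 h after that of Dbp, 15.7 h after that of Tef and 12.9 h after that of Hlf. With that curve Hlf, and not Dbp, came nearest to 12 h, so which activator is in antiphase depends on the fit. The 4 h step between samples limits all of these times.

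**Figure D2:**
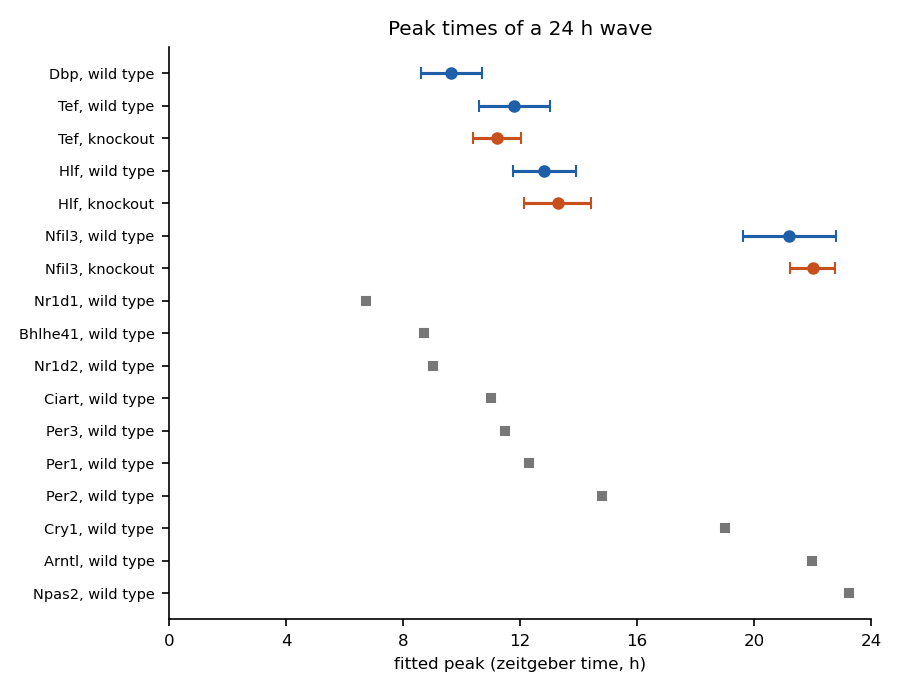
Fitted peak of a 24 h wave (horizontal axis, zeitgeber time in h) for the members in wild type (blue) and knockout (orange), as least-squares peak with its 95% interval over 12 libraries, and for 10 of the clock genes called in wild type (grey squares, edgeR fit, no interval). Nfil3 in wild type (21.2 h) sits between Cry1 (19.0 h) and Arntl (22.0 h), while Tef (11.8 h) sits among Ciart, Per3 and Per1.

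Among 18 clock genes, 11 passed the wild-type test, and their peaks give the phase of these livers. Nr1d1, which encodes the repressor REV-ERB alpha, peaked at 6.73 h, before all members. The closest to Dbp was Nr1d2 (9.01 h), its REV-ERB beta relative, with Bhlhe41, an E-box repressor, at 8.72 h. Per3 (11.5 h) and Per1 (12.3 h), which encode PERIOD repressors, were on either side of Tef. Ciart, which peaked between Dbp and Per3, encodes a further repressor of CLOCK and BMAL1, and Per2 followed all 3 activators at 14.8 h. On the night side, Cry1 (19.0 h) encodes a CRYPTOCHROME. Nfil3 was followed by Arntl (22.0 h), which encodes BMAL1, and by Npas2 (23.3 h), a CLOCK relative. Clock, Cry2, Rora, Bhlhe40, Csnk1d and Csnk1e were among the 7 that did not pass in wild type.

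Levels of the members can be compared with each other per length only, as CPM per kb of annotated exon. Averaged over the wild-type day, Tef stood at 23.5 ± 13.1, Nfil3 at 17.9 ± 9.76, Hlf at 10.9 ± 2.71 and Dbp at 5.15 ± 6.79 CPM per kb (SD over 12 libraries, the daily rhythm included). Neighbours in this order differed by less than that spread. The order depended on the time of day. At ZT08 it was Tef (39.9 ± 2.99), Dbp (17.9 ± 1.53), Hlf (12.7 ± 1.04) and Nfil3 (4.46 ± 0.312 CPM per kb; SD, n = 2 each). At ZT24 Nfil3 led with 24.2 ± 4.24, before Hlf with 8.38 ± 0.83, Tef with 5.77 ± 0.537 and Dbp with 0.123 ± 0.0426 CPM per kb. With the longest transcript as the length, the mean level of Tef was 42.0 CPM per kb, and at ZT24 Tef (10.3 CPM per kb) and Hlf (9.93 CPM per kb) changed places.

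The summed level of the 3 activators over that of Nfil3, both per kb, puts the balance of mRNAs into 1 value. In wild type it was 0.93 and 1.62 at ZT04, 17.5 and 14.2 at ZT08, and 7.13 and 6.69 at ZT12 (set I first). It then sank to 1.52 and 2.45 at ZT16, 0.927 and 1.02 at ZT20, and 0.683 and 0.515 at ZT24. Activator mRNA thus exceeded repressor mRNA in all libraries from ZT08 to ZT16 and lay below it in both at ZT24, under both lengths. With the longest transcript the ratio was larger, with means of 11.2 at ZT12 and 0.856 at ZT24, and it lay above 1 in both libraries at ZT04 (1.47 and 2.54) and at ZT20 (mean 1.52). In the knockout the ratio read from the residual counts was 1.25 ± 0.18 at ZT08 and 0.0235 ± 0.00235 at ZT24 (SD, n = 2 each). With the longest transcript these means were 2.17 and 0.0407. The knockout ratio divides counts left on deleted genes by full lengths, so it cannot be read as a balance of intact mRNAs.

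**Figure D3:**
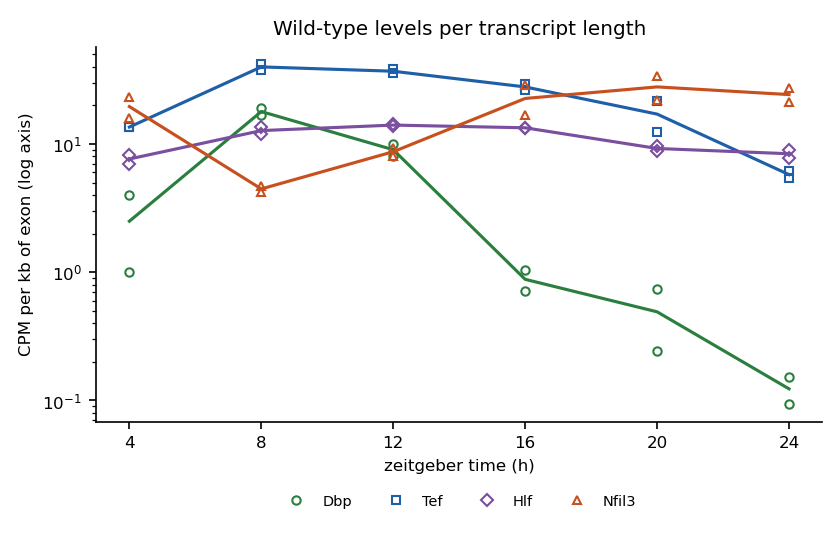
Wild-type level per kb of exon (log axis) against zeitgeber time for the 4 genes; points are libraries and lines join the means of 2. Nfil3 is the lowest of the 4 at ZT08 (4.46 CPM per kb) and the highest at ZT20 and ZT24 (27.8 and 24.2 CPM per kb), though at ZT20 Tef stands above it (30.5 CPM per kb) by the longest transcript.

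Among 39 bZIP genes tested, these members held the 3 largest wild-type amplitudes, in the order Dbp, Tef and Nfil3, while Hlf was 12th. Cebpb (amplitude 0.86), Cebpd (0.77) and Atf6b (0.50) were among the 4 of the other 35 that passed the wild-type test. By wild-type level per kb, Tef ranked 7th, Nfil3 10th, Hlf 15th and Dbp 24th of the 39. Atf5, a stress factor, and Cebpa, a factor of hepatocyte identity, were the most abundant.

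The deleted genes were then read in the knockout, as a check of the labels and of how much signal remained. For Dbp, Tef and Hlf every one of the 12 knockout libraries was lower than every wild-type library, a separation seen in 0.921% of all genes tested. Dbp had 0 counts in 9 of the 12 knockout libraries. The other 3 held 2 counts (ZT08 set I), 1 count (ZT12 set P) and 1 count (ZT20 set P). Against 3107 counts in wild type, these 4 counts made 0.125% after scaling, a 798-fold lower level. The exact 95% binomial interval, from the knockout share of both genotypes' counts, was 0.0341 to 0.321%, or 311- to 2931-fold, for counting error only. At the times with 0 counts, a floor of 3 counts over both libraries put Dbp at least 82.2-fold lower at ZT04, at least 31.2-fold lower at ZT16 and at least 4.36-fold lower at ZT24. By the exact 95% intervals these lower bounds were smaller, at 66.3-, 24.8- and 3.10-fold.

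Tef kept the most signal. Its knockout level was 5.93 and 11.2 CPM at ZT04, 28.4 and 25.8 CPM at ZT08, and 30.1 and 23.0 CPM at ZT12. It was 16.0 and 14.3 CPM at ZT16, 7.19 and 7.19 CPM at ZT20, and 4.0 and 3.54 CPM at ZT24. These residual counts peaked and fell as the wild-type counts did, at 5.35% of the wild-type mean at ZT20 to 9.14% at ZT12 and 7.96% over the day. Tef and Hlf were called lower at all 6 times by edgeR, where 0.696, 0.603, 1.15, 1.01, 2.47 and 0.384% of all genes were called lower from ZT04 to ZT24. For Tef the highest of these edgeR adjusted p was 8.69e-06 (ZT24, log2 difference −3.59, SE 0.29), and the averaged log2 difference kept its call in all 24 fits that left out 1 library (−3.78 to −3.61). Without wild-type set I the averaged differences were −3.64 for Tef and −5.88 for Hlf (edgeR adjusted p = 7.2e-10 and 5.18e-12).

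Hlf kept less. Its knockout level ran from 0.112 CPM (ZT24 set P) to 3.34 CPM (ZT12 set I), with a median of 1.48 CPM over the 12 libraries. The residual was 0.566% of the wild-type mean at ZT24, 1.08% at ZT04, 1.95% at ZT08, 3.18% at ZT12, 2.77% at ZT16 and 2.16% at ZT20. The exact binomial intervals at ZT24 (0.278 to 1.0%) and ZT12 (2.58 to 3.86%) did not meet. They come from the knockout share of both genotypes' counts and cover counting error only, not the spread between libraries. The ZT24 value rests on 9 and 2 counts. Which exons carry the residual counts of Tef and Hlf was not analysed here.

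**Figure D4:**
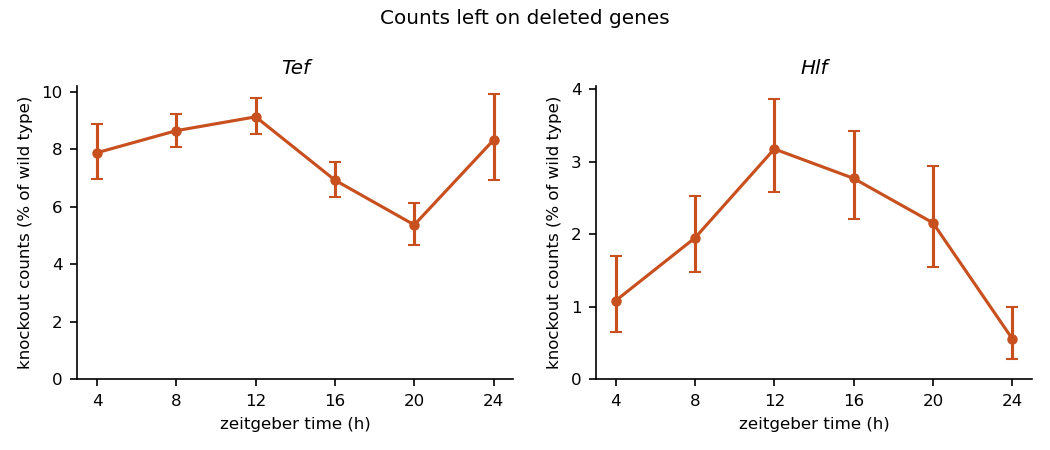
Knockout counts as a percentage of wild-type counts, scaled for library size, for Tef and Hlf against zeitgeber time. Bars are exact 95% binomial intervals from the knockout share of both genotypes' counts. Tef stays between about 5.37 and 9.13%, while Hlf goes from 0.558% at ZT24 to 3.17% at ZT12.

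The wave over the day was tested on these residual counts too. Tef and Hlf passed in the knockout (edgeR adjusted p = 9.27e-05 and 1.39e-05), and so did Nfil3 (adjusted p = 0.000213 by edgeR), where 3.57% of all genes passed. The knockout peak of Tef was at 11.1 h and that of Hlf at 13.4 h in the edgeR fit. By least squares, these peaks were shifted from wild type by −0.59 h for Tef (95% interval −2.06 to 0.88 h) and by 0.46 h for Hlf (−1.12 to 2.04 h), so no shift was resolved for either.

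The residual Hlf wave was fitted as steeper than the wild-type one, a difference that the main edgeR test did not call. Its amplitude was 1.47 in the knockout and 0.47 in wild type, and the range of group means was 9.40-fold against 1.84-fold. By edgeR's test of this difference Hlf ranked 4th of 15090 genes, with an unadjusted p = 6.22e-05 but an adjusted p of 0.194 (edgeR). In this comparison 0% of genes were called, with 0 by edgeR, 791 at an unadjusted p under 0.05 and 23 by DESeq2. DESeq2 called Hlf (adjusted p = 0.00089), as did edgeR with no filter on low counts (adjusted p = 0.0102) and without knockout ZT24 replicate 2 (0.0499). Over the other edgeR fits that left out 1 library the adjusted p rose up to 0.415. For Tef, the amplitudes of 1.42 in the knockout and 1.25 in wild type were not called different (edgeR adjusted p = 0.982).

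Nfil3, the member whose gene is intact in both genotypes, was read in the knockout next. Its knockout level was 31.95 and 22.1 CPM at ZT04, 5.75 and 6.40 CPM at ZT08, and 8.97 and 10.2 CPM at ZT12. It was 21.7 and 19.5 CPM at ZT16, 48.6 and 48.5 CPM at ZT20, and 47.3 and 43.3 CPM at ZT24. The wave was present without the 3 factors, lowest at ZT08 and highest at ZT20 as in wild type, with an 8.0-fold range of means. Both knockout libraries lay below both wild-type libraries at 4 of 6 times (ZT04, ZT08, ZT12 and ZT16) and overlapped them at ZT20 and ZT24. Of all genes tested, 15.8% lay below at 4 or more times.

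Averaged over the day, Nfil3 fell by 0.58 on the log2 scale (SE 0.11, edgeR adjusted p = 0.00198), from 36.3 ± 19.8 to 26.2 ± 17.1 CPM (SD, n = 12 each). Dbp, Tef and Hlf were called lower too, which their deletion fixes, so only the Nfil3 call is informative here. The contrast called 33.2% of all genes tested, and Nfil3 was among the 21.1% called lower in the knockout. The fall kept its call in all 24 fits that left out 1 library (edgeR adjusted p 0.000521 to 0.00494). It was −0.45 (edgeR adjusted p = 0.00222) without the 6 wild-type set I libraries and −0.38 (edgeR adjusted p = 0.00433) after removing each library's trend with GC content. With set I alone it was −0.70 and did not pass (edgeR adjusted p = 0.11).

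The estimated gap was widest at ZT12 and ZT16, as Nfil3 climbed after its trough. A change of the gap over the day was not called (genotype by time interaction, edgeR adjusted p = 0.894). The log2 difference was −0.55 at ZT04, −0.57 at ZT08, −0.88 at ZT12 and −1.15 at ZT16, then −0.22 at ZT20 and −0.12 at ZT24 (SE 0.27 to 0.28). Only ZT16 passed with edgeR (adjusted p = 0.0474, where 1.01% of genes were called lower). That call was lost in 15 of 24 fits without 1 library and kept without either library of wild-type ZT04, knockout ZT04 or wild-type ZT20, or without wild-type ZT12 or ZT16 replicate 2 or wild-type ZT24 replicate 1. Without wild-type ZT16 replicate 1 the difference was −0.72 (edgeR adjusted p = 0.67), and without wild-type set I it was −0.72 (0.0779), while ZT12 passed there at −0.98 (0.0262).

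**Figure D5:**
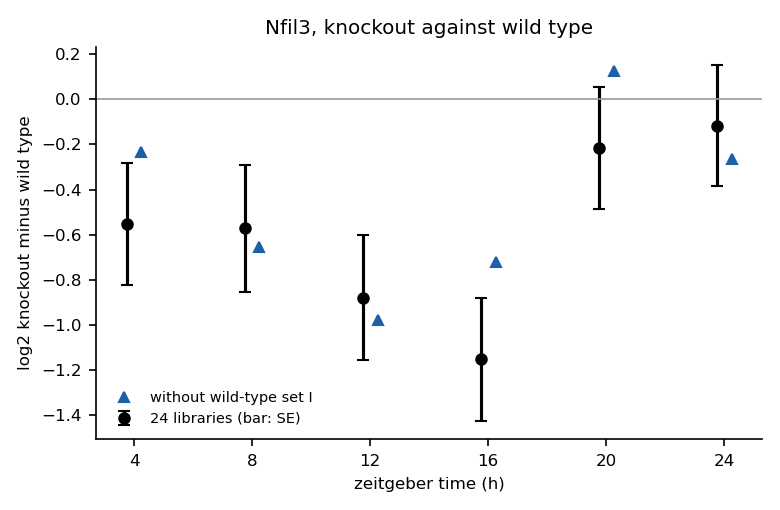
Log2 difference of Nfil3, knockout minus wild type, against zeitgeber time; circles are the edgeR estimate from 24 libraries with its SE, triangles the estimate without the 6 wild-type set I libraries. The circles are lowest at ZT16 (−1.15), and at ZT20 the sign turns without set I (0.13).

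The shape and phase of the Nfil3 wave were not shown to differ between genotypes. The knockout amplitude was 1.49 and the wild-type amplitude 1.17, with edgeR peaks at 22.1 and 21.3 h. The least-squares shift was 0.79 h later in the knockout (SE 0.78, 95% interval −0.98 to 2.57 h), which leaves room for a delay of up to 2.57 h. The test of both wave terms gave an edgeR adjusted p = 0.982, and the genotype by time interaction an edgeR adjusted p = 0.894.

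Values that moved beside these falls are given for the other cells a liver piece holds. The summed hepatocyte markers were lower in the knockout (42158 to 67294 CPM, against 68683 to 97330 CPM in wild type). Alb, Apoa1, Ttr and Tat were the 4 of 6 that fell, where 21.1% of all genes did. Cps1 and Fgb were not called. Without wild-type set I, 3 of 6 fell, where 8.86% of all genes did. The largest term was Alb, which dropped from 62607 ± 8170 to 35381 ± 7323 CPM (SD, n = 12 each). Alb is also on the list of known targets given below, so this sum is no clean measure of hepatocyte content. Markers of natural killer and T cells were near 0 in both genotypes, summing to 1.54 to 4.23 CPM in wild type and 1.11 to 3.74 CPM in the knockout. Of these 7, Nkg7 fell, and Klrb1c and Eomes were too low to test. B cell markers summed to 1.33 to 8.42 and 0.616 to 5.6 CPM, with Cd79a and Cd79b among those lower. Kupffer cell markers summed to 317 to 639 and 326 to 507 CPM, with Vsig4 and Marco higher. In the lists of stellate cells, bile duct cells and blood, Reln rose (0.21), Krt19 fell (−0.51) and Hbb-bs rose (0.46), and of 4 markers of sinusoidal endothelium 0 passed by edgeR. Stellate markers summed to 140 to 373 CPM in wild type and 288 to 421 CPM in the knockout, and endothelial markers to 145 to 203 and 157 to 239 CPM. Bile duct markers reached at most 62.6 and 72.1 CPM, and blood markers at most 159 and 245 CPM. Without wild-type set I none of these 3 was called, Clec4g of the endothelial list rose (0.28), and Alb (−0.83), Ttr (−0.24), Tat (−0.41), Nkg7 (−1.64) and Cd79a (−0.95) were still called lower, while Apoa1 and Cd79b were not. The part of these in the Nfil3 difference was not tested.

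The clock genes that read or feed these factors kept their waves in the knockout: 12 of 18 passed there, against 3.57% of all genes, 11 of them in both genotypes, and 0 of 18 were called for a difference in rhythm by edgeR. Averaged over the day 5 of 18 fell, where 21.1% of all genes did, namely Per3 (−1.35), Cry1 (−0.64), Ciart (−0.61), Arntl (−0.35) and Cry2 (−0.31), and Csnk1e, a kinase gene, rose (0.38). Without wild-type set I, Per3 (−1.49), Cry1 (−0.48), Ciart (−0.61) and Csnk1e (0.49) were still called and Arntl (−0.24, edgeR adjusted p = 0.168) and Cry2 (−0.09, 0.391) were not. The median log2 difference over the 18 was −0.05, and that of all genes tested −0.02. Nr1d1, which encodes a repressor of Nfil3, went from 30.2 ± 36.1 to 38.2 ± 35.6 CPM (SD, n = 12 each) and was not called (0.56, SE 0.23, edgeR adjusted p = 0.0689). The receptor gene Rora (0.59, edgeR adjusted p = 0.219) was not called either.

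Of 35 other bZIP genes 10 fell and 0 rose by edgeR over the day, with a median of −0.10, where 21.1% of all genes fell. Without wild-type set I only Atf5 (−0.35) and Atf4 (−0.30) of these 10 were called (edgeR adjusted p = 0.00247 and 0.0143), the median was −0.02, and 8.86% of all genes were called lower. The amino acid stress factors Atf5 (−0.66, from 328 ± 144 to 199 ± 33.3 CPM) and Atf4 (−0.50, from 135 ± 41.9 to 94.3 ± 13.4 CPM) fell, with Atf3 (−0.78) and Cebpa (−0.39; SD, n = 12 each). Jun (−0.45) and Atf6b (−0.31) were also lower with all libraries. Cebpa, Jun, Jdp2 and Atf6b had the smallest p in this list for a difference in rhythm, between 0.039 and 0.098 by edgeR before adjustment, and none was called.

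Of 18 known targets of PAR bZip factors or NFIL3, 13 fell (21.1% of all genes did), 1 rose and 4 did not pass, with a median of −0.98. Without wild-type set I the same 13 were called lower and 3 higher (Cyp7a1, Cyp2a4 and Cyp2a5), with a median of −0.82. Since the list was made with earlier results of these data known, the count is no independent evidence of a direction. The smallest p were those of the P450 genes Cyp4a10, a fatty acid hydroxylase (−5.83), Cyp2c50 (−4.97), Cyp2b10 (−4.29) and Cyp2c37 (−3.33), and without wild-type set I these were −5.46, −4.94, −3.71 and −3.32. Cyp7a1, the rate-limiting enzyme of bile acid synthesis, rose from 301 ± 254 to 533 ± 224 CPM (SD, n = 12 each, log2 difference 1.18, edgeR adjusted p = 0.0223), or by 0.74 without wild-type set I (edgeR adjusted p = 0.018). Its wild-type wave peaked between those of Dbp and Tef in the edgeR fit. Cyp4a14, Cyp8b1, Cyp7a1 and Fgf21 had the smallest p of this list for a difference in rhythm (0.00992 to 0.141 by edgeR before adjustment), and none was called. Targets with a wave like that of Tef and Hlf in both genotypes were Por (12.4 and 12.1 h in wild type and knockout) and Cyp2a4 (12.8 and 13.6 h), with Cyp2a5 close behind the Cyp2a4 peak in wild type.

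Genes whose wild-type levels ran most like each member were named by Pearson's r of log2 CPM over the 12 wild-type libraries, among 10592 genes. These r are descriptions, since the libraries share the time course and set I its GC trend. Closest to Dbp were Narf (r = 0.938), Ppara (0.923), which encodes the fatty acid receptor PPAR alpha, Slc5a6 (0.891), a vitamin transporter gene, Gys2 (0.875), which encodes liver glycogen synthase, and Coq10b (0.874). Opposite to Dbp ran Ubqln1 (−0.945), Pdk4 (−0.942), a kinase that restrains pyruvate oxidation, Chka (−0.938), a choline kinase gene, Zfp775 (−0.935) and Cgn (−0.934). Tef was matched most closely by Per1 (0.944), Efhd2 (0.942), Lrp4 (0.938), Bnip3 (0.938) and Tob2 (0.934).

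Hlf was matched by Wee1 (0.950), a mitotic kinase gene under clock control, Nr1h4 (0.939), which encodes the bile acid receptor FXR, B3galnt1 (0.930), Kbtbd11 (0.923) and Usp2 (0.922), a deubiquitinase gene. Wee1 fell by 0.50 and Usp2 by 1.07 on the log2 scale in the knockout (edgeR adjusted p = 0.00328 and 0.000149), and by 0.56 and 0.84 without wild-type set I. Kbtbd11 (−0.58, edgeR adjusted p = 0.0425) was called lower only with that set. Nr1h4 (0.003, edgeR adjusted p = 0.968) and B3galnt1 (−0.05, 0.77) were not called, where 21.1% of all genes were called lower. Nfil3 was matched by Mreg (0.979), Dapk1 (0.969), Pnrc1 (0.968), Rnd1 (0.957) and Lnx2 (0.955). Mreg was lower in the knockout as Nfil3 was (−0.82, edgeR adjusted p = 4.74e-06, and −0.70 without wild-type set I). Pnrc1 (0.01, edgeR adjusted p = 0.945), Dapk1 (−0.18, 0.0888), Rnd1 (−0.11, 0.442) and Lnx2 (−0.08, 0.477) were not called. Opposite to Nfil3 ran Slc2a2 (−0.913), which encodes the glucose transporter GLUT2, Bmp10 (−0.909), Arhgef26 (−0.896), Coq10b (−0.892) and Ripk2 (−0.890). Of these, Slc2a2 was higher in the knockout (0.45, edgeR adjusted p = 0.000696, and 0.38 without wild-type set I). The others were not called with all libraries. Between the members themselves, r was −0.875 for Dbp and Nfil3, −0.642 for Tef and Nfil3, and −0.595 for Hlf and Nfil3. It was 0.831 for Dbp and Tef, 0.803 for Tef and Hlf, and 0.595 for Dbp and Hlf.

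Genes that overlap the members were checked, because the strand setting of the counting is not given in the sources used here. Sphk2, a sphingosine kinase gene, overlaps Dbp by 737 bases on the other strand, and reads there cannot be told apart without strand. It stood at 34.9 ± 12.9 CPM over wild-type libraries and 34.1 ± 9.90 CPM over knockout libraries (SD, n = 12 each, edgeR adjusted p = 0.875), and its wild-type wave was not called (edgeR adjusted p = 0.519). The non-coding Gm17597 overlaps Tef by 193 bases, and it held 47 counts in wild type and 23 in the knockout over all libraries, too few to test. Nfil3 and Hlf overlap no other annotated gene.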

How the data were processed

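Liver mRNA was sequenced in 24 libraries, made with the TruSeq Stranded mRNA kit according to the labels. The deposited table gives raw counts for each Ensembl gene and library. The submitters' processing notes list STAR 2.4.0i and build mm10. How reads were counted, and whether strand was used, is not given in the sources used here, so counts of overlapping genes are uncertain. Members and gene lists were chosen with earlier results of these data known. Groups came from the labels. Counts were fitted with edgeR 4.0.16 (R 4.3.3): TMM scaling, filterByExpr by group at its minimum of 10 counts, quasi-likelihood F-tests over 15090 genes, Benjamini-Hochberg adjustment and a threshold of 0.05. One fit of 12 group means gave the genotype contrasts, averaged over the day and at each time, and one fit with a cosine and a sine of 24 h per genotype gave waves and their difference. CPM are the counts over TMM-scaled library sizes. Peak time differences came from least-squares cosine fits to log2 CPM (prior count 2) with delta-method errors (numpy 2.4.6). Lengths and coordinates came from the GENCODE annotation of GRCm38. The fits were tested on simulated counts with 200 changed genes. Alternatives were DESeq2 1.42.0, RLE scaling, no filter, a replicate block, each set alone and leaving out each library. Chosen after seeing the data were leaving out wild-type set I, removing GC trends and the interaction test. Named were the members, the 5 genes with the highest r to each (for Dbp and Nfil3 also the 5 lowest), clock genes, up to 4 genes per other list and contrast by smallest p, and overlapping genes; further list members were named after their values were seen, and some genes that the rule names are left out of the text. Depth was 14613001 to 19288322 counts. Intervals of the residual counts cover counting error only, while those of peak times come from the scatter of libraries about the fit. Reads carry no molecular identifiers.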

Additional observations from a re-analysis of the deposited data

How the results depend on the processing

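Genes called averaged over the day numbered 5007 (1827 higher and 3180 lower), 7898 with the replicate block, 2189 in set P alone (1125 higher, 1064 lower) and 2894 without wild-type set I (1528 higher, 1366 lower). Leaving out 1 library gave 3315 to 9130, beyond 1.5 times without wild-type ZT16 replicate 1 (3315) and without wild-type ZT04, ZT16 or ZT20 replicate 2 (7810, 7621 and 9130). From ZT04 to ZT24, 190, 141, 279, 249, 593 and 102 genes were called; leaving out 1 library gave 41 to 398, 44 to 196, 84 to 395, 62 to 561, 50 to 8129 and 38 to 129. With the replicate block there were 370 at ZT04, 469 at ZT16 and 2871 at ZT20. With no filter on low counts there were 1079, 416, 632, 1533, 3130 and 343. With DESeq2 there were 349 at ZT04, 214 at ZT08, 430 at ZT16, 1228 at ZT20 and 169 at ZT24, and with GC trends removed 328, 215, 486 and 427 from ZT04 to ZT16 and 156 at ZT24. At ZT20, 345 were called without wild-type set I.

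Wild-type waves numbered 1308, with 0 in set I alone, 838 in set P alone, 755 without wild-type set I, 1989 with GC trends removed and 914 to 2012 without 1 library. Knockout waves numbered 538, with 995 by DESeq2, 0 in set I alone, 2714 without wild-type set I, 1081 with GC trends removed and 381 to 847 without 1 library. Differences in rhythm numbered 0 by edgeR, 72 with no filter, 23 by DESeq2, 5 with GC trends removed and 0 to 3 without 1 library.

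For Nfil3 with set I alone, the averaged difference was −0.70, the wild-type amplitude 1.30 and the knockout amplitude 1.55, and none passed. Its averaged difference was −0.61 to −0.50 without 1 library. Its ZT20 difference turned to 0.13 without wild-type set I and to 0.18 with GC trends removed, and ran from −0.45 to 0.13 without 1 library. At ZT24 it ran from −0.28 to 0.076, turning without wild-type ZT24 replicate 2. With a 12 h harmonic the gaps were 16.1 h (Nfil3 after Dbp), 15.7 h (after Tef), 12.9 h (after Hlf), 0.36 h (Tef after Dbp) and 2.83 h (Hlf after Tef). Tef stood at 42.0 CPM per kb by the longest transcript, and raw library sizes put the residual at 8.66% for Tef and 2.31% for Hlf. Libraries of the same letter deviated together with r of 0.184, 0.123, 0.231, 0.0705, 0.0541 and 0.0842 from ZT04 to ZT24. Not all were above 0.1, and by that limit the main fits took the letters as shared numbers only. The mean r with GC content was, however, higher in set I than in set P in both genotypes. It was 0.437 and −0.0599 in wild type and −0.0514 and −0.228 in the knockout. The letters may thus mark a shared difference that the main fits leave out. The replicate block left the Nfil3 fall at −0.58 (edgeR adjusted p = 0.00117) and changed no call of a member. The cause of these changes was not tested. At 0 to 2 counts per knockout library, depth limits Dbp.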
